A study of Homo sapiens with 8 samples.

Results

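UBD, OR2I1P and GABBR1 are 3 genes on chromosome 6 whose exons lie over one another, and they were followed together in 2D human intestinal epithelial cells (2D hIECs). They are 3 of the 60558 genes in the expression files, taken by their gene names, and were selected on their values in inflamed and normal hIECs, where UBD and OR2I1P stood far apart between the groups. That contrast is therefore given below as a description, with no test. H9, a long-established line of human embryonic stem cells, was the source of all cells. Normal hIECs received no cytokine and no particulate matter 10 (PM10, airborne particles). Normal hIECs with PM10 were kept with 100 µg/ml PM10 for 7 days. Inflamed hIECs were given IFNγ and TNFα, each at 50 ng/ml, over 10 days, and inflamed hIECs with PM10 received the same cytokines and, over the last 7 days, 100 µg/ml PM10. These doses and times are those of the study's methods, whereas a treatment of 10 days is recorded with the samples of every group. Each of the 4 groups had 2 libraries, all from 1 stem cell line and a culture without added immune cells. Nothing states that the 2 libraries of a group came from separate cultures, so the p-values measure only the spread between these libraries.

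UBD encodes FAT10, a small modifier built of a pair of ubiquitin-like domains. FAT10 is attached to other proteins by its own enzyme cascade, and proteins that carry it can be sent to the proteasome. The gene is well known to respond to IFNγ and TNFα, in epithelial cells as well as in immune cells. OR2I1P carries the name of an olfactory receptor pseudogene, although the files list its type as protein-coding. GABBR1 encodes a subunit of the GABA-B receptor, a receptor coupled to inhibitory G proteins that needs GABBR2, the other subunit, to signal at the cell surface.

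The 3 genes were placed on GRCh38 with the GENCODE 44 annotation. UBD (ENSG00000213886) covers chr6:29555515-29559732 on the minus strand and has 1 transcript, UBD-203, of 2 exons and 894 bases. OR2I1P (ENSG00000237988) covers chr6:29550407-29557773 on the plus strand, with 3 transcripts. GABBR1 (ENSG00000204681) covers chr6:29555629-29633976 on the minus strand, with 20 transcripts. Of the 894 exonic bases of UBD, 836 (93.5%) also belong to an OR2I1P exon and 722 (80.8%) to a GABBR1 exon. Only 58 bases, the first exon of UBD at chr6:29559675-29559732, belong to neither. The second exon of UBD, chr6:29555515-29556350, lies whole inside the last exon of OR2I1P-207, chr6:29553225-29557773. Among the 20 GABBR1 transcripts only GABBR1-201 reaches this exon, and its last exon, chr6:29555629-29556350, begins at the same base as the second exon of UBD. No coding base is shared between any pair of the genes. Seen from the other genes the overlap is small, at 15.4% of the 5417 exonic bases of OR2I1P and 8.5% of the 8454 exonic bases of GABBR1. The libraries kept no strand information, so a fragment from the shared exon could not be given to UBD, GABBR1 or OR2I1P by its strand.

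**Figure D1:**
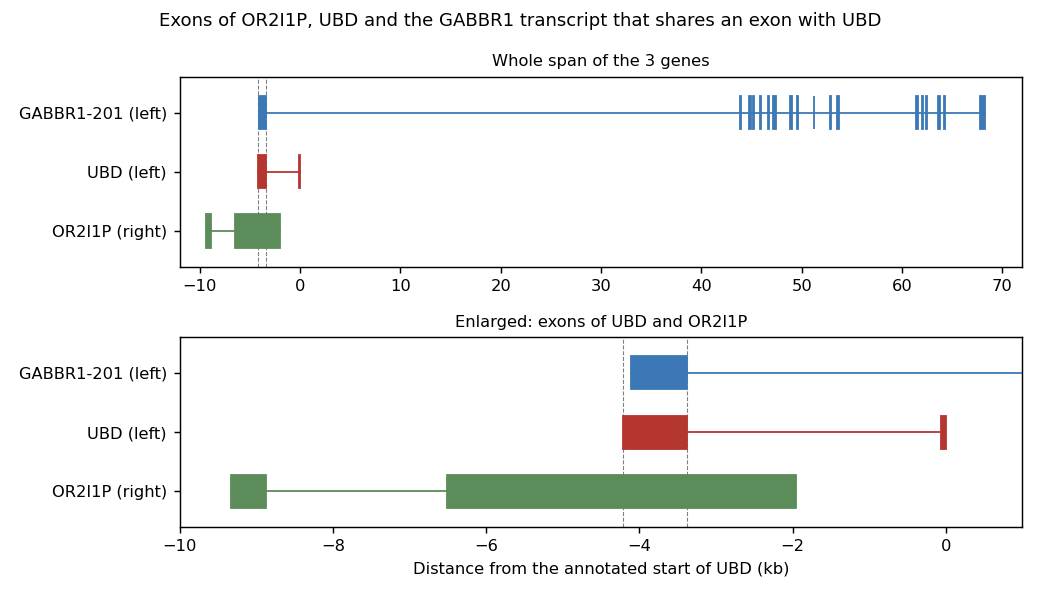
Exons (boxes) and introns (lines) of OR2I1P-207, UBD-203 and GABBR1-201 by distance from the annotated start of UBD in kb, for the whole span (top) and enlarged around UBD (bottom). Left and right name the direction in which each gene is read, and the dashed lines bound the second exon of UBD, over which OR2I1P and GABBR1-201 also have an exon.

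The start of the coding sequence of UBD is shown because it crosses from the exon that is UBD's alone into the exon that all 3 genes share. The sequence is that of GENCODE 44, read 5′ to 3′ on the minus strand. Capitals mark the 27 coding bases of exon 1, chr6:29559675-29559701. The lower-case letters are the first 60 bases of exon 2, chr6:29556291-29556350.
UBD: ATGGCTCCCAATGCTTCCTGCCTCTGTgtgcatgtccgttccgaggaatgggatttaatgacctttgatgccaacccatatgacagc
Only fragments that touch the 58 bases of exon 1 or the splice junction after them are particular to UBD in this annotation. The files give 1 value per gene, so the share of such fragments was not seen here.

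The 250 bases before the start of UBD, chr6:29559733-29559982 on the minus strand, are shown because UBD had the highest FPKM of the 3 genes with cytokines. The sequence is from RefSeq (GRCh38.p14), whose promoter table held 2 of the 3 genes, UBD and GABBR1. Capitals mark, from left to right, matches to the letters AANNGAAA, GGNNTTTCC and TATANAA.
UBD: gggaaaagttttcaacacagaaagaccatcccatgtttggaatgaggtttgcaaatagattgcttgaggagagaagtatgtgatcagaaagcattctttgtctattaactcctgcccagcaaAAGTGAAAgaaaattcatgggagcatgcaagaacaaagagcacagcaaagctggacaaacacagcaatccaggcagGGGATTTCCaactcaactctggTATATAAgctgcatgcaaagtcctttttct
AANNGAAA is the core of sites for interferon regulatory factors, GGNNTTTCC a form of the κB site bound by NF-κB, and TATANAA a form of the TATA box. The match AAGTGAAA lies 128 to 121 bases before the start, GGGATTTCC 52 to 44 bases before it, and TATATAA 30 to 24 bases before it. Searched on both strands in the same 250-base window of 35116 RefSeq promoters, AANNGAAA was present in 20.3%, GGNNTTTCC in 5.5% and TATANAA in 8.4%. TTCNNNGAA, a form of the IFNγ-activated site, was present in 6.6% of promoters, GAAANNGAA, a form of the interferon-stimulated response element, in 6.9%, and neither was found in the UBD window. The window of the same length listed for GABBR1, chr6:29628014-29628263, held none of the 5. This window lies before the start of the transcript GABBR1-202 at 29628013, inside the gene, whose annotated span reaches 29633976. Windows before the starts further upstream were not searched. The GABBR1 window also differed in base composition, with 72.4% G and C against 41.6% for UBD, where the median of all promoters was 58.0%. These matches describe letters in the windows and do not show binding.

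The values are FPKM, fragments divided by transcript length and by the number of mapped fragments of the library. They carry no counts, so the depth behind a value is unknown. The lowest value above 0 in a library lay between 0.164 and 0.228 FPKM. Before the results, the label of the cells was compared with marker genes. Of 12 markers of intestinal epithelium, 6 were listed at 0 in all 8 libraries (VIL1, CDX2, KRT20, MUC2, LYZ and CHGA). EPCAM did not pass 0.622 FPKM, and CDH1 was above 0 only in the first inflamed library with PM10, at 0.221. The epithelial markers summed to 657 to 665 FPKM in normal hIECs and 614 to 650 with PM10. The sum was 355 to 360 in inflamed hIECs and 297 to 316 in inflamed hIECs with PM10. Nearly all of it was KRT8 and KRT18, so the lower sum with cytokines describes these genes. In that order of groups, the mean of SOX9 also fell (14.2, 13.9, 3.92 and 3.68 FPKM), whereas that of LGR5 rose (2.32, 2.32, 5.47 and 8.10 FPKM). Mesenchymal markers such as COL3A1 and VIM summed to 2511 to 2607, 2270 to 2278, 2418 to 2444 and 1877 to 1911 FPKM in the same order. Neuronal markers, 2 of 7 at 0 throughout, summed to 198 to 207, 217 to 225, 118 to 118 and 134 to 137 FPKM. Of 7 immune cell markers, 4 were at 0 in all libraries (CD3E, MS4A1, CD14 and ITGAX), and the sum never passed 2.09 FPKM. In bulk RNA, fewer cells of a type and less RNA per cell cannot be told apart, and the part of these marker levels in the results below was not tested.

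UBD was close to the floor without cytokines and highly placed among all genes with them. Its FPKM was 0.198 and 0.501 in the normal libraries, which is 1.21 and 2.34 times the lowest value those libraries list, and it was listed at 0 in both normal libraries with PM10. In inflamed hIECs it was 189 and 190 FPKM, and in inflamed hIECs with PM10 it was 203 and 220. All 4 cytokine-treated libraries therefore stood far above the 4 others, with no overlap. This separation includes the values on which the gene was chosen, and the share of all genes with such a separation was not counted. Ranked by FPKM within a library, UBD stood at place 15306 and 18206 in the normal libraries and between places 242 and 288 in the cytokine-treated ones. The mean of the inflamed libraries was 543 times that of the normal libraries, with ratios of single libraries from 378 to 962, a width that comes from the low normal values.

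OR2I1P showed the same division. It was listed at 0 in all 4 libraries without cytokines. It was 158 and 162 FPKM in inflamed hIECs, and 189 and 188 in inflamed hIECs with PM10. No fold is given against a group listed at 0. Its place by FPKM lay between 286 and 345 in the cytokine-treated libraries, just behind UBD. In those libraries, the FPKM of OR2I1P was 0.837, 0.851, 0.929 and 0.857 times that of UBD. Because FPKM is divided by transcript length, similar FPKM values mean more fragments for the longer gene. With the lengths of UBD-203 (894 bases) and OR2I1P-207 (5000 bases), the values correspond to 169 to 196 for UBD and 792 to 944 for OR2I1P in FPKM multiplied by kilobases, a ratio of 4.68 to 5.20. These products, which stand for fragments, assume that each gene was measured on that 1 transcript.

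GABBR1 was present in every library and moved the other way. It was 22.4 and 22.3 FPKM in normal hIECs, and 23.2 and 24.8 with PM10. It was 20.1 and 18.2 FPKM in inflamed hIECs, and 11.8 and 14.9 in inflamed hIECs with PM10. The order of the group means was thus normal with PM10 (24.0 ± 1.1), normal (22.4 ± 0.056), inflamed (19.2 ± 1.4) and inflamed with PM10 (13.4 ± 2.2; SD, n = 2 each). No library of one group overlapped those of the next, but the share of all genes with such an order was not counted. Between normal hIECs with and without PM10 the difference was not called (limma adjusted p = 0.569). The mean of the inflamed libraries was 0.857 times that of the normal ones. Its value was not higher in the cytokine-treated libraries, although 722 of its exonic bases are exonic in UBD as well.

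**Figure D2:**
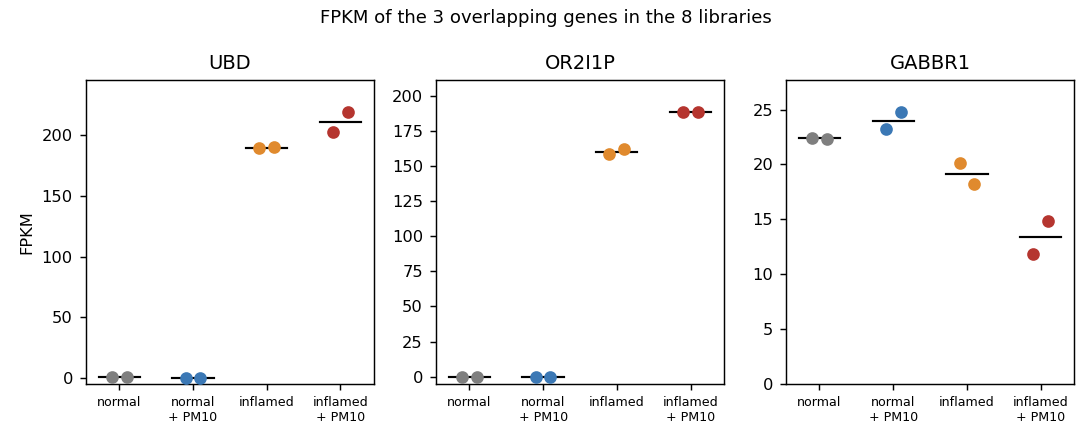
FPKM of UBD, OR2I1P and GABBR1 in the 8 libraries (points, 2 a group) with the group mean (line). UBD and OR2I1P lie at or near 0 without cytokines and between 158 and 220 FPKM with them, whereas GABBR1 is lowest in inflamed hIECs with PM10, at 11.8 and 14.9 FPKM.

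On the log2(FPKM + 1) scale, inflamed hIECs differed from normal hIECs by 7.15 for UBD, 7.33 for OR2I1P and -0.21 for GABBR1. These 3 differences come from the contrast that chose the genes and were not tested. The same cytokine treatment was compared in the 4 PM10-exposed libraries, which the choice did not use, to see how the genes stood there. In these, UBD was higher by 7.73 and OR2I1P by 7.57. Both genes reached 1 FPKM in the cytokine-treated libraries alone and so entered the fit through the groups where they were high. They had to differ, and their differences are given as a description with no test. Both genes were listed at 0 in the normal libraries with PM10, so the size of these differences follows from the pseudocount of 1 and is no bound on the fold. With a pseudocount of 0.1 they were 11.05 and 10.88. GABBR1 fell by 0.81 (SE 0.10, limma adjusted p = 0.000315), and its mean was 44.3% lower, 13.4 against 24.0 FPKM, with ratios of single libraries from 0.478 to 0.641. A call was made for 65.4% of the 14206 genes tested, so a call alone sets GABBR1 little apart. The median difference of all genes tested was -0.11. The call of GABBR1 held in each of 12 alternative settings.

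The PM10 effects share the normal or the inflamed libraries with the contrast that chose the genes. With PM10 in normal hIECs, UBD was the only one of the 3 genes called. It went from 0.198 and 0.501 FPKM to a listing of 0 in both libraries, a difference of -0.42 (SE 0.10, limma adjusted p = 0.0459) at values near the lowest the libraries list. UBD entered the fit through its cytokine-treated libraries, and the SE is averaged over all 4 groups. It is therefore no measure of the spread near the floor, and no effect of PM10 on UBD is read from the call. This call was lost in 8 of 12 alternative settings, with adjusted p-values from 0.00587 to 0.249, and without the second normal library, which holds the 0.501, the difference was -0.26 (limma adjusted p = 0.0727). It was also lost without either normal library with PM10, at limma adjusted p = 0.171 and 0.159. GABBR1 differed by 0.096 (SE 0.10, limma adjusted p = 0.569). OR2I1P was listed at 0 in all 4 of these libraries. A call was made for 9.23% of all genes, and the call of UBD is not set against this share. That background share itself rests on the shared spread of all 4 groups, since 23 genes instead of 1311 were called when only the normal groups were fitted.

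In inflamed hIECs with PM10, the values of OR2I1P and UBD were higher and those of GABBR1 lower than without it. OR2I1P was 1.18 times as high, from 160 ± 2.6 to 189 ± 0.30 FPKM (SD, n = 2), a log2 difference of 0.23 (SE 0.050, limma adjusted p = 0.0225). UBD was 1.11 times as high, from 190 ± 0.81 to 211 ± 12 FPKM (SD, n = 2). Its log2 difference of 0.15 (SE 0.10, limma adjusted p = 0.340) was not called. Ratios of single libraries ran from 1.16 to 1.19 for OR2I1P and from 1.07 to 1.16 for UBD. Both genes entered the fit through their cytokine-treated libraries, and each SE is averaged over all 4 groups. It includes the groups listed at 0 for OR2I1P and the near-floor normal libraries for UBD. The call of OR2I1P beside none for UBD is therefore not read as a different response. GABBR1 fell by 0.50 on the log2 scale (SE 0.10, limma adjusted p = 0.0195), which is 30.3% lower. OR2I1P and GABBR1 were called, where 15.2% of all genes were, and no effect of PM10 on OR2I1P is read from its call. The call of OR2I1P held in 7 of 12 alternative settings and that of GABBR1 in 8. Leaving out any 1 of the 4 libraries ended the call of OR2I1P (limma adjusted p = 0.140 and 0.107 without the first and the second inflamed library, 0.131 and 0.125 without the first and the second inflamed library with PM10). For GABBR1 the adjusted p-values were 0.112, 0.0608, 0.0750 and 0.0146 in the same order, so of these 4 only the fit without the second inflamed library with PM10 kept its call.

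The difference between the PM10 effects in inflamed and in normal hIECs includes all the libraries that chose the genes, so it is given with no test. It was 0.58 for UBD and -0.59 for GABBR1. The larger part of the 0.58 was the -0.42 in normal hIECs, at near-floor values, against 0.15 in inflamed hIECs. For OR2I1P none is given, since it was at 0 without cytokines. Over all genes, the limma interaction was called for 6.60%. A single gene in 2 against 2 libraries could not reach a two-sided exact permutation p below 0.333, so these calls rest on the spread that limma borrows across genes.

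The genes that handle FAT10 protein moved far less than UBD, and most were higher with the cytokines. Of 10 genes of FAT10 conjugation and binding, 9 were tested, and in PM10-exposed hIECs 6 rose, 2 fell and 1 was not called, where 65.4% of all genes were called, 3661 higher and 5625 lower (median 0.54, against -0.11 for all genes). UBA6, the enzyme that activates FAT10, was 3.89 and 3.38 FPKM in normal hIECs, 3.75 and 3.82 with PM10, 7.23 and 7.21 in inflamed hIECs, and 8.42 and 8.09 in inflamed hIECs with PM10, a log2 difference of 0.95 (SE 0.072) in the PM10-exposed cells. UBE2Z, the conjugating enzyme that takes FAT10 over from UBA6, rose by 0.54, from 29.9 ± 0.52 to 43.99 ± 3.5 FPKM (SD, n = 2). Both enzymes had higher values in each cytokine-treated library than in any other, but the share of all genes that did so was not counted.

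NUB1, which binds FAT10 and speeds its breakdown, rose by 0.67, from 20.6 ± 0.82 to 33.5 ± 0.49 FPKM (SD, n = 2). SQSTM1, the autophagy receptor p62, rose by 0.54, from 98.4 ± 0.88 to 143 ± 0.46 FPKM (SD, n = 2). MAD2L1, a spindle checkpoint protein that FAT10 binds, rose by 0.65, and LRRFIP2 by 0.50. HDAC6, the deacetylase that carries FAT10 to aggresomes, fell by 1.04, from 13.2 ± 0.16 to 5.95 ± 0.28 FPKM (SD, n = 2). OTUB1, a deubiquitinase, fell by 0.32, a call that held in 7 of 12 alternatives (limma adjusted p from 0.00113 to 0.105). PSMD4, the ubiquitin receptor of the proteasome, differed by -0.070 and was not called. AIPL1 was listed at 0 in all 8 libraries.

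SQSTM1 was the FAT10-binding gene with a PM10 effect in both backgrounds. It was 51.2 and 52.0 FPKM in normal hIECs and 99.1 and 97.8 with PM10, a rise of 0.92 (SE 0.042, limma adjusted p = 0.000163). In inflamed hIECs it went from 119 and 124 to 143 and 144 FPKM, a rise of 0.24 (SE 0.042, limma adjusted p = 0.0121). With PM10 in normal hIECs UBE2Z also rose, by 0.27, so that 2 of the 9 genes were called there, where 9.23% of all genes were. In inflamed hIECs 1 of the 9 was called, where 15.2% of all genes were, which sets the list no higher than the rest. The call of UBE2Z held in 4 of 12 alternatives (limma adjusted p from 0.0283 to 0.179) and that of SQSTM1 in inflamed hIECs in 8 (0.00810 to 0.0907).

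The other modifiers of the ubiquitin family differed by at most 1.15 with the cytokines in PM10-exposed hIECs. Of 19 genes for ubiquitin and ubiquitin-like modifiers, 18 were tested, and in PM10-exposed hIECs 3 rose and 9 fell (median -0.19), a share of calls near the 65.4% of all genes, among which falls were also more frequent. ISG15, the other interferon-induced modifier of the list, rose by 1.15 (SE 0.054), from 73.3 and 73.7 to 171 and 158 FPKM. SUMO3 rose by 0.37 and UFM1 by 0.21. GABARAP and GABARAPL2, modifiers of autophagosome membranes, fell by 0.70 and 0.64, MAP1LC3A of the same family fell by 0.53, and FAU, which encodes a ubiquitin-like protein fused to a ribosomal protein, fell by 0.45. With PM10, GABARAPL1 rose in normal hIECs (by 0.43), and ISG15, GABARAP and UBB fell in inflamed hIECs (by 0.22, 0.21 and 0.19). Of these 4 calls, those of ISG15, GABARAP and UBB held in at most 6 of 12 alternatives.

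The receptors and factors known to act upstream of UBD were all above 0 in every library without cytokines. Of 9 genes, 5 rose and 1 fell in PM10-exposed hIECs (median 0.25), a share of calls near the 65.4% of all genes. IRF1, a transcription factor induced by IFNγ, rose by 3.61 (SE 0.11), from 5.61 and 4.94 to 76.0 and 74.5 FPKM. NFKB1, a subunit of NF-κB, rose by 1.52, from 6.76 and 7.41 to 22.1 and 22.2 FPKM. JAK2 rose by 0.75, TNFRSF1B, a TNF receptor, by 0.47, and IFNGR1 by 0.25, the last in 8 of 12 alternatives. TNFRSF1A, the other TNF receptor, fell by 0.35. RELA, JAK1 and IFNGR2 differed by -0.076, -0.093 and 0.058 and were not called.

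With PM10 alone, IRF1, NFKB1 and TNFRSF1A rose in normal hIECs, by 0.44, 0.32 and 0.31, while UBD was listed at 0 there. IRF1 went from 4.21 and 3.09 to 5.61 and 4.94. These 3 calls held in 4, 8 and 9 of 12 alternatives, with limma adjusted p-values of up to 0.211. So 3 of 9 were called in normal hIECs, against 9.23% of all genes. In inflamed hIECs PM10 moved none of the 9 past the threshold, against 15.2% of all genes.

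**Figure D3:**
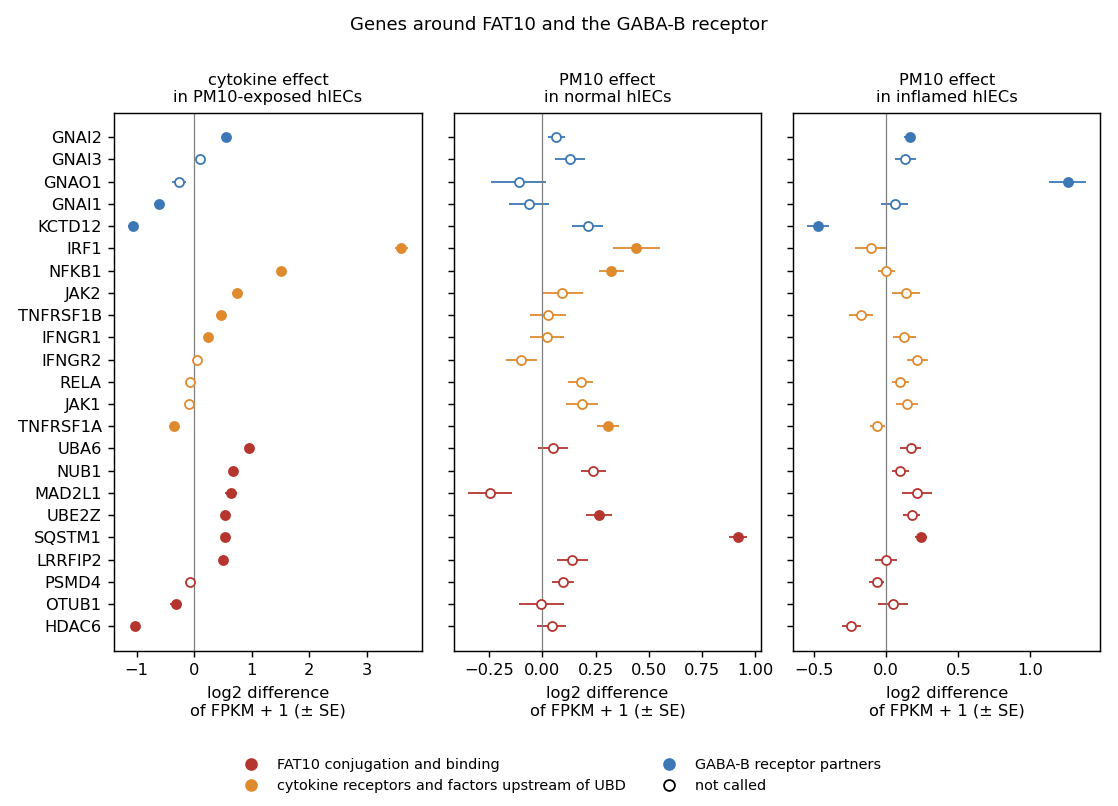
log2 difference of FPKM + 1 (± SE) of the tested genes of FAT10 conjugation and binding, of the factors upstream of UBD and of the GABA-B receptor partners, in 3 comparisons with 2 libraries a group. Filled points passed the limma threshold, and the horizontal scales differ between panels, with IRF1 at 3.61 in the left one.

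GABBR1 was measured in cells that listed its partner subunit at 0. GABBR2, the auxiliary subunits KCTD8 and KCTD16, and the potassium channel genes KCNJ3 and KCNJ9 were listed at 0 in all 8 libraries, and KCNJ5 and KCNJ6 did not pass 0.705 FPKM. Of 12 GABA-B receptor partners, 5 were tested, and 3 of these were called with cytokines in PM10-exposed hIECs (65.4% of all genes) and 3 with PM10 in inflamed hIECs (15.2% of all genes). KCTD12, an auxiliary subunit, was 8.29 and 7.46 FPKM in normal hIECs, 9.68 and 8.88 with PM10, 5.65 and 5.92 in inflamed hIECs, and 3.82 and 3.95 in inflamed hIECs with PM10. Its group means came in the same order as those of GABBR1. It fell by 1.07 (SE 0.074, limma adjusted p = 1.38e-05) with cytokines in PM10-exposed hIECs and by 0.47 (SE 0.074, limma adjusted p = 0.00747) with PM10 in inflamed hIECs.

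Among the inhibitory G protein subunits, GNAI2 rose by 0.55 and GNAI1 fell by 0.61 with cytokines in PM10-exposed hIECs. GNAI3 and GNAO1 differed by 0.11 and -0.26 and were not called. GNAO1 was 3.29 and 3.42 FPKM in normal hIECs, 3.43 and 2.66 with PM10, 0.258 and 0.5603 in inflamed hIECs, and 2.37 and 2.33 in inflamed hIECs with PM10. With PM10 in inflamed hIECs it thus rose by 1.26 (SE 0.13, limma adjusted p = 0.00153), from values near the lowest that the libraries list. GNAI2 rose by 0.16 there, a call kept in 6 of 12 alternatives. Of the genes of GABA itself, GAD2 and the transporter genes SLC6A13 and SLC32A1 were listed at 0 throughout, and GAD1, which makes GABA, reached 1.11 FPKM at most and was at 0 in the 4 cytokine-treated libraries. ABAT, which breaks GABA down, rose by 0.33 and ALDH5A1, the next enzyme, fell by 0.45 with cytokines in PM10-exposed hIECs. ABAT also rose by 0.36 with PM10 in inflamed hIECs, a call kept in 5 of 12 alternatives.

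The neighbourhood of the genes was largely silent. Within 250 kb of UBD the files hold 41 other genes, of which 9 were above 0 in at least 1 library and 3 were tested. The 5 other genes that overlap a member of the trio (OR2H5P, TMEM183AP1, SNORD32B, RPL13AP and OR2H2) were listed at 0 in all libraries, and so was UBDP1, the pseudogene of UBD. HLA-F, a class I-like histocompatibility gene 163 kb from the start of UBD, was 19.4 and 14.6 FPKM in normal hIECs, 14.98 and 16.2 with PM10, 94.6 and 95.7 in inflamed hIECs, and 90.8 and 87.3 in inflamed hIECs with PM10. It rose by 2.44 (SE 0.11, limma adjusted p = 2.07e-06) with cytokines in PM10-exposed hIECs. SUMO2P1 and HLA-F-AS1 stayed between 0.769 and 1.68 FPKM and were not called. The other 6 (ZDHHC20P1, RPL23AP1, MICE, HCG4, ENSG00000225864 and ENSG00000270896) did not pass 1.15 FPKM.

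As an olfactory receptor gene OR2I1P was alone at its level. The files hold 845 rows for olfactory receptor genes and pseudogenes, of which 18 were above 0 in at least 1 library and 6, OR2I1P included, were tested. The next by mean FPKM were OR7E38P, at 4.03 FPKM in its highest library, and OR51E2, at 5.16. Of the 5 others tested, none rose and 3 fell with cytokines in PM10-exposed hIECs, among them OR51E2, by 0.62, where 65.4% of all genes were called.

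The profiles nearest to each gene were sought by the root mean square difference of log2(FPKM + 1), centred on each gene's mean, over the 8 libraries. Since the 8 points fall into few groups and share their libraries, this distance is a description. The nearest to UBD among all genes tested was OR2I1P (0.175), followed by IFI27, CXCL11, IDO1 and GBP5 (0.218 to 0.298). The nearest to OR2I1P were UBD, IDO1, CXCL11, CCL5 and IL32 (0.175 to 0.253). IFI27, an interferon-induced gene, was 0.683 to 1.77 FPKM without cytokines and 301 to 304 with them. CCL5, a chemokine gene, was at 0 without cytokines, at 122 and 112 FPKM in inflamed hIECs and at 211 in both libraries with PM10.

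GABBR1 had different company. Its nearest profiles were RUFY3, AC073508.3, ARHGAP6, MAP3K6 and AC009779.3 (0.0568 to 0.0718). RUFY3, the nearest, was 11.7 and 11.4 FPKM in normal hIECs, 10.9 and 12.5 with PM10, 9.26 and 8.95 in inflamed hIECs, and 5.33 and 6.81 in inflamed hIECs with PM10. The first inflamed library with PM10 was the lowest of the 8 for GABBR1, RUFY3 and the 4 others. These genes were chosen for their likeness to GABBR1 over the same libraries, so the shared low is no separate result.

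**Figure D4:**
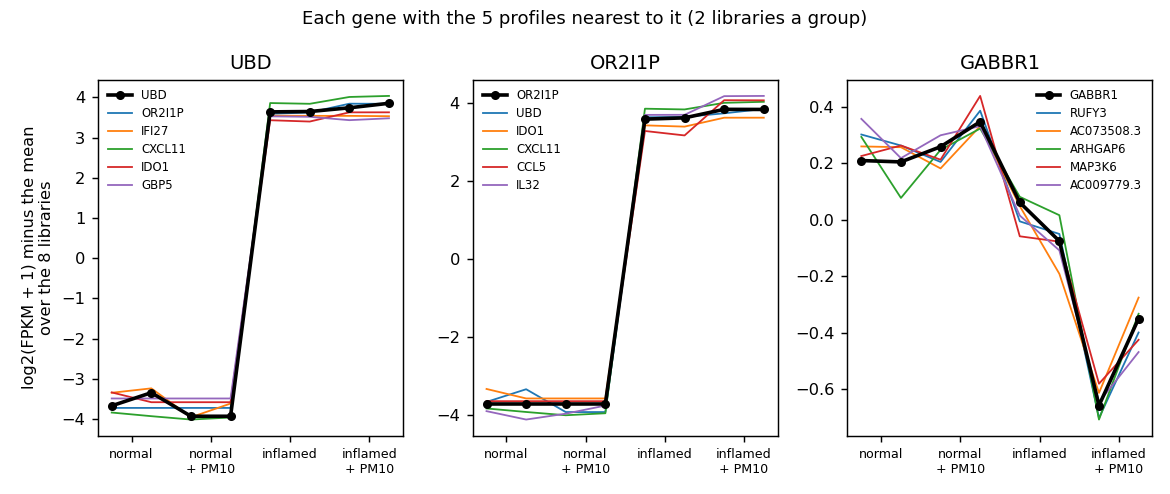
log2(FPKM + 1) minus the gene's own mean over the 8 libraries, for UBD, OR2I1P and GABBR1 (black) and the 5 nearest profiles of each (colours), with 2 libraries a group. UBD and OR2I1P step up with the cytokines, whereas GABBR1 and its nearest profiles are lowest in inflamed hIECs with PM10, and the vertical scales differ between panels.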

How the data were processed

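RNA-seq of 8 libraries (4 groups of 2) of 2D hIECs was analysed. The authors prepared poly-A selected, non-stranded libraries, trimmed the reads with Cutadapt and Sickle, aligned them to GRCh38 with HISAT2 and estimated expression with StringTie. They deposited FPKM values, 1 for each gene in each library, and these were not scaled again. The annotation release is not given in the sources used here, and 99.5% of the gene identifiers were found in GENCODE 44, which gave positions and overlaps. How the estimator divided fragments over shared exons is not given either.

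Values were compared as log2(FPKM + 1), which understates changes of low genes, for the 14206 genes that reached 1 FPKM in 2 or more libraries. limma 3.58.1 (R 4.3.3) was fitted to all 8 libraries with a variance trend, and Benjamini-Hochberg adjustment was made within each comparison, with 0.05 as the threshold. The script was tested on simulated data. Alternatives covered the pseudocount, filters, scaling, trend, groups in the fit, the replicate number as a block and each library left out.

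The members and lists were chosen with earlier results of these data known. Named were the 3 genes, every member of lists of up to 12 genes, the most changed called members of longer lists, the nearest profiles, overlapping genes, genes above 0 within 250 kb and the highest olfactory receptor genes. Some list genes are not reported here and were left out of the lists and their counts. UBB, GABARAPL1, SUMO3, UFM1 and UBDP1 were named after their values were seen. Same-numbered libraries did not deviate together (correlations of -0.0015 to 0.079 across genes). Python 3.11.15 was used with pandas 2.3.3, numpy 2.4.6 and matplotlib 3.10.9.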

Additional observations from a re-analysis of the deposited data

Results flagged for a closer look

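The PM10 effect differed between inflamed and normal hIECs for 5 list genes by limma's interaction test (inflamed minus normal, log2 scale), of 43 tested in the 5 lists, where 6.60% of all genes were called. SQSTM1 rose with PM10 by 0.92 in normal and by 0.24 in inflamed hIECs, an interaction of -0.68 (SE 0.060, limma adjusted p = 0.00178). GNAO1 differed by -0.11 in normal hIECs and rose by 1.26 in inflamed hIECs, an interaction of 1.37 (SE 0.18, limma adjusted p = 0.00862). KCTD12 differed by 0.21 in normal hIECs and fell by 0.47 in inflamed hIECs, an interaction of -0.69 (SE 0.10, limma adjusted p = 0.0134). TNFRSF1A rose by 0.31 in normal hIECs and differed by -0.061 in inflamed hIECs, an interaction of -0.37 (SE 0.072, limma adjusted p = 0.0298). GABARAPL1 rose by 0.43 in normal hIECs and differed by 0.064 in inflamed hIECs, an interaction of -0.37 (SE 0.083, limma adjusted p = 0.0446). The last 3 calls held in 11, 8 and 3 of 15 alternatives, and those of SQSTM1 and GNAO1 in all that gave a value.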

How the results depend on the processing

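The cytokine differences of the 3 genes in PM10-exposed hIECs kept their direction under all 12 alternatives, GABBR1 kept its call, and no result of a member or list gene reversed. Without PM10, the untested differences were 8.81 (UBD) and 10.6 (OR2I1P) with a pseudocount of 0.1, and OR2I1P was 7.30 under quantile normalization and 7.32 to 7.35 with an inflamed library left out. The UBD difference with PM10 in normal hIECs lost its call at -0.42 with every gene above 0, without the trend and with only the groups compared, at -0.48 under median centring and at -0.26 under quantile normalization, and ranged from -0.59 to -0.26 with 1 library left out. With PM10 in inflamed hIECs, OR2I1P lost its call at 0.23 with a pseudocount of 0.1 and GABBR1 at -0.50 with only the groups compared, and leaving out 1 library gave 0.22 to 0.25 and -0.65 to -0.34. The interaction of UBD and GABBR1 includes all the libraries that chose them, so its alternatives are also given with no test. For UBD it was 2.24 with a pseudocount of 0.1 and 0.58 with genes of at least 5 FPKM. For GABBR1 it was -0.59 with the latter. With 1 library left out, the interaction ranged from 0.41 to 0.74 for UBD and from -0.75 to -0.44 for GABBR1. The ends for UBD, 0.74 and 0.41, came without the first and the second normal library. The -0.75 for GABBR1 came without the second inflamed library with PM10. Genes called with PM10 in normal hIECs were 1311, but 23 with only the groups compared and 192 to 2601 with 1 library left out. Left-out libraries gave 672 to 724 instead of 2165 with PM10 in inflamed hIECs and 260 to 1257 instead of 937 for the interaction. A group left with 1 library was assumed to vary like the others. With the replicate block, no call of the 3 genes changed (GABBR1 with cytokines and PM10 -0.81, limma adjusted p = 0.000671), and 9264, 1051, 1966 and 762 genes were called. With cytokines, 25 of 32 called genes, the list genes and HLA-F together, held in every alternative. Of the list genes called, 1 of 6 and 1 of 8 held with PM10 in normal and inflamed hIECs and 2 of 5 in the interaction. Having 2 libraries a group and the unknown depth limit what can be said of values near 0.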
